A study of Homo sapiens with 9 samples.

Results

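Deoxynucleotides, the building blocks of DNA, are made in the cytosol by ribonucleotide reductase and thymidylate synthase or recovered from nucleosides by salvage kinases, and the pool is kept clean and in balance by enzymes that destroy unwanted or surplus nucleotides. Dividing cells raise most of the synthetic arm as they enter S phase, when E2F transcription factors are active, and much of it is lost again in resting cells. Several of these enzymes are drug targets or drug activators in cancer: antifolates and fluoropyrimidines act on thymidylate synthase, gemcitabine and hydroxyurea on ribonucleotide reductase, and deoxycytidine kinase activates nucleoside analogs.

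The enzymes described here are 9 of the 16204 genes listed in either of the study's 2 count tables. They were chosen by symbol for their place in the pathway, with no measured value in the rule, and all 9 were found in both tables. Earlier results of these data were known when they were chosen, so the choice was not blind to them. RRM1 and RRM2 encode the large and small subunits of ribonucleotide reductase. TYMS methylates dUMP to dTMP, and DUT, the dUTPase, hydrolyzes dUTP and so supplies dUMP. TK1 and DCK phosphorylate thymidine and deoxycytidine, and DTYMK carries dTMP on to dTDP. DCTPP1 hydrolyzes dCTP and modified forms of it, and SAMHD1 breaks deoxynucleoside triphosphates down to nucleosides.

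Bulk RNA-Seq was performed on xenografts of PC3, an established human prostate cancer cell line, grown under the skin of the flanks of male NSG mice, which lack T, B and NK cells. Mice received PBS as vehicle or an antibody-drug conjugate at 5 mg/kg. The series record gives an age of 11 weeks, treatment from a tumor volume of 90 mm3 and 5 weekly retro-orbital cycles. For the tumors analysed by RNA-Seq, the study's methods give the same dose with a younger age, a larger starting volume and fewer cycles. They place the record's age, volume and number of cycles in a separate experiment of T-DXd at a higher dose. The antibody of P-DXd (patritumab deruxtecan) binds HER3, that of T-DXd (trastuzumab deruxtecan) binds HER2, and both conjugates carry the topoisomerase I inhibitor deruxtecan. Titles and treatment fields name opposite conjugates for all 6 treated libraries, and groups follow the titles here as P-DXd-titled, T-DXd-titled and PBS (n = 3 libraries each).

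Total counts ranged from 54481702 to 125538606 per library, with all PBS libraries deeper than all treated ones, and every one of the 9 enzymes had 853 to 27795 counts in each library. Levels are given as CPM, read counts scaled to a common library size after TMM normalization. A call required a fold change of 1.5 or more together with an edgeR quasi-likelihood adjusted p of no more than 0.05. PBS replicate 1 stood apart from the other PBS libraries: the chi-square statistic of its counts against them was 321 and 396 per gene, compared with 38 between PBS replicates 2 and 3. P-DXd-titled replicate 2 also differed from the others of its group, at 132 and 111, compared with 41.5 between P-DXd-titled replicates 1 and 3. PBS replicate 1 had the highest level of all 9 libraries for 7 of the 9 enzymes, and for 32% of all genes tested. Values without it are therefore given for the 9 enzymes, for the ratios between them and for some of the other genes named. The epithelial keratin KRT8 was found at 407 to 517 CPM in PBS tumors and 1038 to 1273 CPM in treated tumors, and the prostate markers KLK3 and KLK2 were not analysed here.

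Promoter sequence is shown for the 3 enzymes that fell most, for the 1 of 4 DUT windows that held E2F-type matches, and for SAMHD1, which was not called, to set the letters before their starts beside their changes. All 9 enzymes matched RefSeq (GRCh38.p14), with 14 annotated start windows, of which the 250 bases before the start were searched on both strands. Capitals mark 8-letter E2F-type matches (TTTCCCGC, TTTGGCGC, TTTCGCGC or TTTGCCGC), their 7-letter cores (TTCCCGC or TTGGCGC, contained in the first and second of these) and the CCAAT box (CCAAT), each also as its reverse complement. Of 35116 human windows of this length, 2.79% held an 8-letter match, 7.81% a core and 32% a CCAAT box.
TYMS, chr18:657403-657652, plus strand: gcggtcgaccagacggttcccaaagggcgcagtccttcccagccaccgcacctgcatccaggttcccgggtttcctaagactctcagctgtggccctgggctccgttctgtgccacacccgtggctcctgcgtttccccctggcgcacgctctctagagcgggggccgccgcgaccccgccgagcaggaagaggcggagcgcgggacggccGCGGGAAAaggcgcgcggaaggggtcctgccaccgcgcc
RRM2, chr2:10122489-10122738, plus strand: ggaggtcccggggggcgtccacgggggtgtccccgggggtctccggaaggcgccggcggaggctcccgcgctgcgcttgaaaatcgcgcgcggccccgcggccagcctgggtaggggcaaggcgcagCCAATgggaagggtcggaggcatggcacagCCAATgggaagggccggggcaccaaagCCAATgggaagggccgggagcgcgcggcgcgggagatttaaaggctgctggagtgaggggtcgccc
TK1, chr17:78187053-78187302, minus strand: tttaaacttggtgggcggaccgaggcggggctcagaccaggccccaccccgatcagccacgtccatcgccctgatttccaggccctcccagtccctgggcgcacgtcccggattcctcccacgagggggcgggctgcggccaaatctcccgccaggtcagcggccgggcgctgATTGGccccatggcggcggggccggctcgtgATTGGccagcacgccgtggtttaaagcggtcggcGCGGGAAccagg
DUT, chr15:48331947-48332196, plus strand: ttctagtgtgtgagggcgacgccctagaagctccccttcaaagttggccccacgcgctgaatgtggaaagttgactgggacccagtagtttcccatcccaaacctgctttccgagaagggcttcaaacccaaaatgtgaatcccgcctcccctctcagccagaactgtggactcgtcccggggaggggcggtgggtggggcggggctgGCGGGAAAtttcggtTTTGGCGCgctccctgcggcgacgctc
SAMHD1, chr20:36951709-36951958, minus strand: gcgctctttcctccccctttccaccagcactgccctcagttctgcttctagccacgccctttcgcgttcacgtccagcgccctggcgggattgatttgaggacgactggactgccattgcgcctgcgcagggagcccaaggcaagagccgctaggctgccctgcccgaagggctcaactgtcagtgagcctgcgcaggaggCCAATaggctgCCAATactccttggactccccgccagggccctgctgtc
The TYMS window held 1 E2F-type match, 39 bases before the start, and no CCAAT box. RRM2 held 3 CCAAT boxes, 123, 93 and 66 bases before its start, and TK1 held 2, at 77 and 46 bases, with an E2F core at 12 bases. The RRM2 window held no E2F core, while another RRM2 window, 171 bases away, held 1, and another TK1 window held none. The DUT window shown, which precedes a start 768 bases downstream of the canonical one, held 2 E2F-type matches at 42 and 27 bases, and the canonical DUT window and the other 2 held neither a match nor a core. SAMHD1 held 2 CCAAT boxes, at 49 and 38 bases, and no E2F core. Of the enzymes not shown, DCK, which was not called, held 2 E2F cores, at 192 and 88 bases. RRM1 held 1, at 223 bases before a start that lies 114 bases from the canonical one, and a CCAAT box at 28 bases. DTYMK held no core and 2 CCAAT boxes. The only DCTPP1 window, whose start lies 230 bases from the canonical one, held neither, and the bases before the canonical start were not searched. E2F cores and CCAAT boxes were thus each present before enzymes that fell and before an enzyme that was not called, and absent before others that fell. A match describes the letters only, since no factor binding was measured.

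In the count tables, whose build is not named and whose coordinates are not those of GRCh38, TYMS (ENSG00000176890.11) lies at chr18:657604-673578, RRM1 (ENSG00000167325.10) at chr11:4115937-4160106 and RRM2 (ENSG00000171848.9) at chr2:10262455-10271545. TK1 (ENSG00000167900.7) lies at chr17:76170160-76183314, DUT (ENSG00000128951.9) at chr15:48623208-48635570 and DCK (ENSG00000156136.5) at chr4:71858255-71896631. DCTPP1 (ENSG00000179958.4) lies at chr16:30434940-30441396, SAMHD1 (ENSG00000101347.7) at chr20:35518632-35580246 and DTYMK (ENSG00000168393.8) at chr2:242615157-242626406. Counts are sums over each gene.

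To determine how each conjugate affected the enzymes, treated tumors were compared with vehicle. Of the 9 enzymes, 5 fell in P-DXd-titled tumors (TYMS, RRM2, TK1, RRM1 and DUT) and none rose, whereas 13.8% of 14945 genes tested were called lower. In T-DXd-titled tumors, 6 of 9 fell, the same genes with DTYMK, against 15.5% of 14915 genes called lower. With all 6 treated tumors compared with PBS, the same 6 fell, against 17.1% of 15070 genes. The median log2 fold change of the 9 enzymes was -1.0, -1.09 and -1.06 in these comparisons, with the median of all genes tested at -0.01, -0.02 and -0.01. All 3 comparisons use the same PBS libraries, so they are not independent of each other. In bulk tissue, fewer cells of a type and less RNA per cell cannot be told apart.

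**Figure D1:**
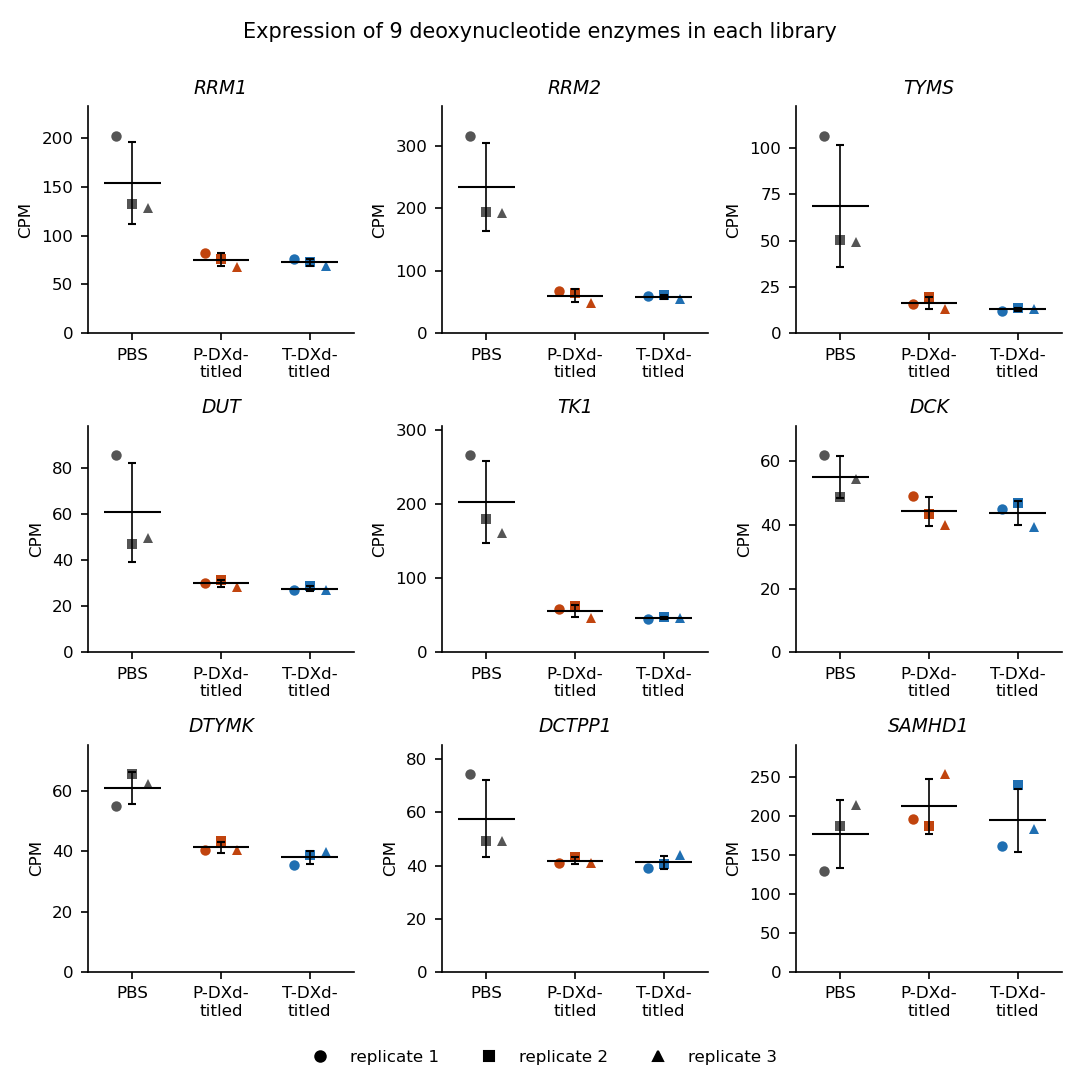
Level of each enzyme in CPM (vertical axes, from 0) in the 3 PBS, 3 P-DXd-titled and 3 T-DXd-titled libraries; symbols are replicates, horizontal bars group means and error bars the SD. For TYMS, RRM1, RRM2, TK1, DUT, DTYMK and DCTPP1 all 6 treated libraries lie below all 3 PBS libraries, as for 25.5% of all genes tested. PBS replicate 1 is the highest point for 7 of the 9 genes, and for 32% of all genes tested.

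Thymidylate synthase showed the largest fall of the 9, although without PBS replicate 1 RRM2 was lower in P-DXd-titled tumors (log2 fold change -1.68 for RRM2 and -1.61 for TYMS). TYMS was measured at 107, 50.1 and 49.1 CPM in PBS replicates 1 to 3, at 15.7, 19.5 and 13.1 CPM in P-DXd-titled tumors, and at 12.2, 13.7 and 12.99 CPM in T-DXd-titled tumors. The treated and vehicle groups did not overlap, and the highest treated tumor was well below the lowest vehicle tumor. Over all genes tested, 25.5% had every treated library below every PBS library. That share is also the background for the other enzymes without overlap between treated and vehicle tumors. TYMS was 4.22-fold lower in P-DXd-titled tumors (log2 fold change -2.08 ± 0.33, SE; edgeR adjusted p = 0.00538) and 5.28-fold lower in T-DXd-titled tumors (-2.40 ± 0.32; edgeR adjusted p = 0.00204). PBS replicate 1 had 2.15 times the mean of the other vehicle tumors, and without it TYMS was 3.06-fold and 3.82-fold lower, both still called. TYMS overlaps ENOSF1 by 3255 bases and C18orf56 by 737 bases, both on the opposite strand. These genes fell too, by 1.28 and 2.21 on the log2 scale with both conjugates (edgeR adjusted p = 1.56e-05 and 0.000567). Whether the counting used strand is not given in the sources used here, so reads of these genes and TYMS may not be separable.

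The subunits of ribonucleotide reductase fell unequally. RRM2, the subunit that is made in S phase and degraded after it, was found at 316, 194 and 192 CPM in PBS tumors, at 67.8, 64.5 and 47.8 CPM in P-DXd-titled tumors and at 59.0, 60.7 and 54.4 CPM in T-DXd-titled tumors. It fell 3.86-fold (log2 fold change -1.95 ± 0.23; edgeR adjusted p = 0.00239) and 4.02-fold (-2.01 ± 0.20; edgeR adjusted p = 0.000928). RRM1, the longer-lived large subunit, was found at 203, 132 and 128 CPM in PBS tumors, at 82.2, 75.9 and 68.2 CPM in P-DXd-titled tumors and at 75.6, 73.0 and 69.0 CPM in T-DXd-titled tumors. It fell 2.02-fold (-1.02 ± 0.19; edgeR adjusted p = 0.00885) and 2.12-fold (-1.09 ± 0.18; edgeR adjusted p = 0.0046). Neither subunit's treated and vehicle libraries overlapped. The 95% confidence interval of the RRM1 change in P-DXd-titled tumors, -1.46 to -0.57, included a 1.5-fold fall, and a test against that fold change did not call it.

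Thymidine kinase changed by about as much as RRM2. TK1 was measured at 266, 180 and 161 CPM in PBS tumors, at 59.1, 62.7 and 46.7 CPM in P-DXd-titled tumors and at 45.4, 48.1 and 46.0 CPM in T-DXd-titled tumors. All treated libraries lay far below all vehicle libraries, with a 3.57-fold fall in P-DXd-titled tumors (log2 fold change -1.84 ± 0.21; edgeR adjusted p = 0.00218) and a 4.35-fold fall in T-DXd-titled tumors (-2.12 ± 0.19; edgeR adjusted p = 0.000658). TK1 and RRM2 differed by a root mean square of 0.12 log2 units over the 9 libraries, each taken relative to its PBS mean, and only RRM1 and DUT were closer to each other among the 36 pairs, at 0.09.

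DUT, which removes dUTP and keeps uracil out of DNA, was found at 85.7, 47.0 and 49.8 CPM in PBS tumors, at 30.2, 31.4 and 28.4 CPM in P-DXd-titled tumors and at 27.1, 29.0 and 27.0 CPM in T-DXd-titled tumors. The groups did not overlap, and the fall was 2.01-fold (log2 fold change -1.0 ± 0.23; edgeR adjusted p = 0.0163) and 2.19-fold (-1.13 ± 0.23; edgeR adjusted p = 0.00901). The call in P-DXd-titled tumors was lost when any of their replicates was left out (edgeR adjusted p = 0.0517 to 0.0715). Without PBS replicate 1, DUT was 1.6-fold lower there and was called (edgeR adjusted p = 0.000681).

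The kinases DTYMK and DCK changed less. DTYMK, which acts on dTMP from both thymidylate synthase and thymidine kinase, was found at 55.1, 65.4 and 62.2 CPM in PBS tumors, at 40.2, 43.2 and 40.2 CPM in P-DXd-titled tumors and at 35.4, 38.8 and 39.6 CPM in T-DXd-titled tumors. It is the only called member in which PBS replicate 1 was the lowest vehicle library. Its 1.46-fold lower level in P-DXd-titled tumors passed edgeR's test (adjusted p = 0.0089) but missed the fold change minimum, whereas its 1.6-fold fall in T-DXd-titled tumors was called (edgeR adjusted p = 0.00274). Without PBS replicate 1 it was called in both, and without PBS replicate 2 it was no longer called with both conjugates pooled. DCK, the entry point of deoxycytidine and many nucleoside drugs, was found at 61.8, 48.7 and 54.3 CPM in PBS tumors, at 49.1, 43.5 and 39.9 CPM in P-DXd-titled tumors and at 45.0, 46.7 and 39.4 CPM in T-DXd-titled tumors. P-DXd-titled and PBS libraries overlapped, T-DXd-titled libraries all lay below PBS, and neither difference was called (log2 fold change -0.30 and -0.33; edgeR adjusted p = 0.106 and 0.0599). With both conjugates pooled, DCK had an adjusted p of 0.0142 by edgeR at a 1.25-fold lower level (95% confidence interval 1.08 to 1.44), under the fold change minimum. DCK overlaps MOB1B, a gene on the same strand that was not called (log2 fold change -0.16).

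DCTPP1 and SAMHD1, which degrade nucleotides, were not called. DCTPP1 was found at 74.2, 49.3 and 49.1 CPM in PBS tumors, at 41.1, 43.3 and 40.8 CPM in P-DXd-titled tumors and at 39.1, 40.7 and 43.95 CPM in T-DXd-titled tumors. Its libraries did not overlap between treated and PBS, as held for 25.5% of all genes with the treated group lower. The pooled log2 fold change was -0.47 (edgeR adjusted p = 0.00696, 1.39-fold lower), under the fold change minimum, with a value of -0.24 once PBS replicate 1 was left out. DCTPP1 overlaps ZNF771, on the opposite strand, which rose (log2 fold change 0.89; edgeR adjusted p = 0.000451). SAMHD1, a dNTP triphosphohydrolase that is active in resting cells, was found at 130, 187 and 215 CPM in PBS tumors, at 196, 188 and 254 CPM in P-DXd-titled tumors and at 161, 240 and 184 CPM in T-DXd-titled tumors. The groups overlapped throughout. Its log2 fold change with both conjugates was 0.20 (95% confidence interval -0.18 to 0.58; edgeR adjusted p = 0.346). Leaving out PBS replicate 1 brought it to 0.03, with the value for T-DXd-titled tumors turning from 0.14 to -0.04. SAMHD1 overlaps TLDC2, on the opposite strand and not called (log2 fold change 0.40).

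**Figure D2:**
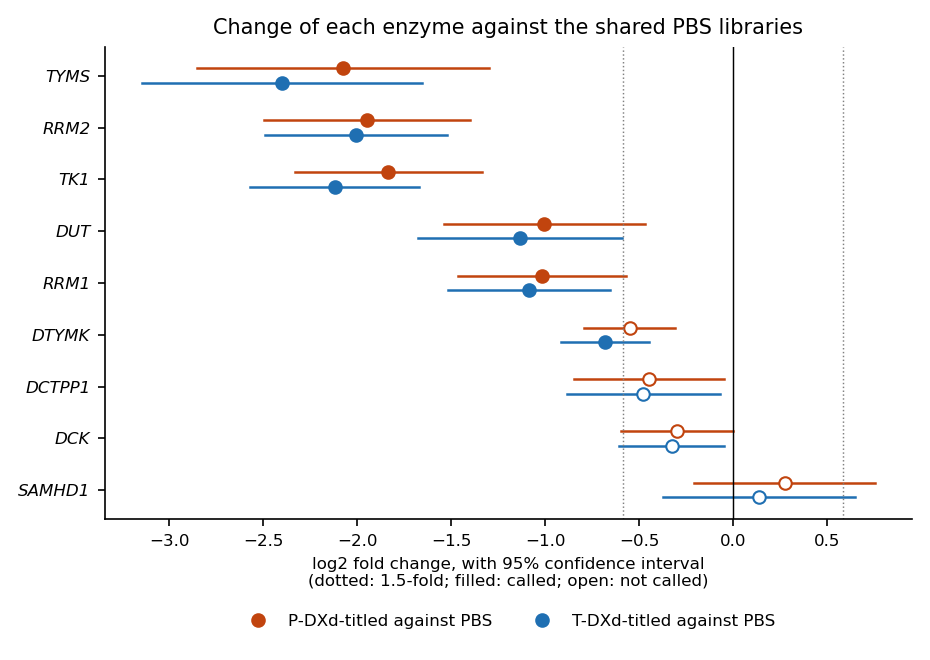
Log2 fold change (horizontal axis) of each enzyme in P-DXd-titled (orange) and T-DXd-titled (blue) tumors against the same 3 PBS libraries, with 95% confidence intervals; filled points were called and dotted lines mark a 1.5-fold change. TYMS, RRM2 and TK1 lie near -2, DUT and RRM1 near -1, and the SAMHD1 intervals include 0.

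The order of levels changed accordingly. Per kilobase of canonical transcript (GENCODE v44), the PBS mean was highest for TK1, at 141 ± 38.9 CPM per kb (SD, n = 3), followed by RRM2 at 71.8 ± 21.7, DTYMK at 58.0 ± 5.01, RRM1 at 49.1 ± 13.4 and DCTPP1 at 48.7 ± 12.2. Lower PBS means were found for TYMS at 42.6 ± 20.5, SAMHD1 at 38.2 ± 9.33, DUT at 28.4 ± 10.1 and DCK at 21.9 ± 2.63. Apart from TK1, whose lowest PBS library exceeded every PBS library of the other 8, neighbours in this order overlapped between libraries. In treated tumors SAMHD1 had the highest mean level per kb, at 43.9 ± 7.62 (SD, n = 6), followed by DTYMK at 37.7 ± 2.43, TK1 at 35.9 ± 5.27 and DCTPP1 at 35.1 ± 1.52, which overlapped each other. Next came RRM1 at 23.6 ± 1.64, RRM2 at 18.1 ± 2.2, DCK at 17.5 ± 1.53 and DUT at 13.5 ± 0.807. TYMS had the lowest treated mean, 9.01 ± 1.69. RRM1 lay below the 4 enzymes before it in every treated library, RRM2 and DCK overlapped each other and lay below RRM1, and DUT and then TYMS lay below the rest without overlap.

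To compare enzymes within a tumor, ratios of the counts of 2 genes were taken in each library, which need no scaling between libraries. Counts were not divided by length, so a ratio describes change and not relative abundance. RRM2 to RRM1 was 1.56, 1.47 and 1.5 in PBS tumors, 0.825, 0.849 and 0.701 in P-DXd-titled tumors and 0.781, 0.832 and 0.788 in T-DXd-titled tumors. This ratio was steady between vehicle tumors, PBS replicate 1 included, and lower in 6 of 6 treated tumors (log2 difference of treated minus PBS -0.93; exact two-sided permutation p = 0.0119, the smallest that 84 divisions of the libraries allow, adjusted p over 6 ratios = 0.0143). RRM2 to RRM2B, the p53-inducible small subunit that serves resting cells, was 6.86, 3.07 and 2.47 in PBS tumors and 0.72 to 0.859 in treated tumors, a log2 difference of -2.24 with the same exact permutation p. The differences without PBS replicate 1 were -0.90 for RRM2 to RRM1 and -1.80 for RRM2 to RRM2B. RRM2B itself was not called (log2 fold change 0.25, edgeR adjusted p = 0.145). With RRM2 already lower in all treated libraries, the ratio to RRM2B restates that fall, and its p-value is no separate support.

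TK1 to TK2, the mitochondrial thymidine kinase, was 25.7, 9.46 and 7.98 in PBS tumors and 1.48 to 2.14 in treated tumors, a log2 difference of -2.90 (exact permutation p = 0.0119, adjusted p = 0.0143). TK2 rose, from 10.3, 19.0 and 20.2 CPM in PBS tumors to between 27.5 and 32.5 CPM in treated tumors (log2 fold change 0.88 ± 0.18; edgeR adjusted p = 0.00198), and by 0.64 without PBS replicate 1. RRM2 to SAMHD1 was 2.43, 1.04 and 0.894 in PBS tumors and 0.188 to 0.366 in treated tumors, a log2 difference of -2.17. The exact permutation p was again 0.0119 (adjusted p = 0.0143). Without PBS replicate 1 the differences were -2.38 for TK1 to TK2 and -1.72 for RRM2 to SAMHD1. TK1 and RRM2 fell without overlap while TK2 and SAMHD1 were not called lower. Both ratios therefore restate falls given above, and their p-values are no separate support. DCK to DGUOK, its mitochondrial counterpart, was 1.47, 1.1 and 1.12 in PBS tumors and 0.84 to 1.11 in treated tumors. The groups overlapped at a log2 difference of -0.32 (exact permutation p = 0.0357, adjusted p = 0.0357), which moved to -0.19 with an adjusted p of 0.179 without PBS replicate 1. Leaving out any other library except PBS replicate 2 or T-DXd-titled replicate 1 also took its adjusted p above 0.05, to at most 0.0714. DGUOK showed a log2 fold change of 0.00 (95% confidence interval -0.16 to 0.16).

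**Figure D3:**
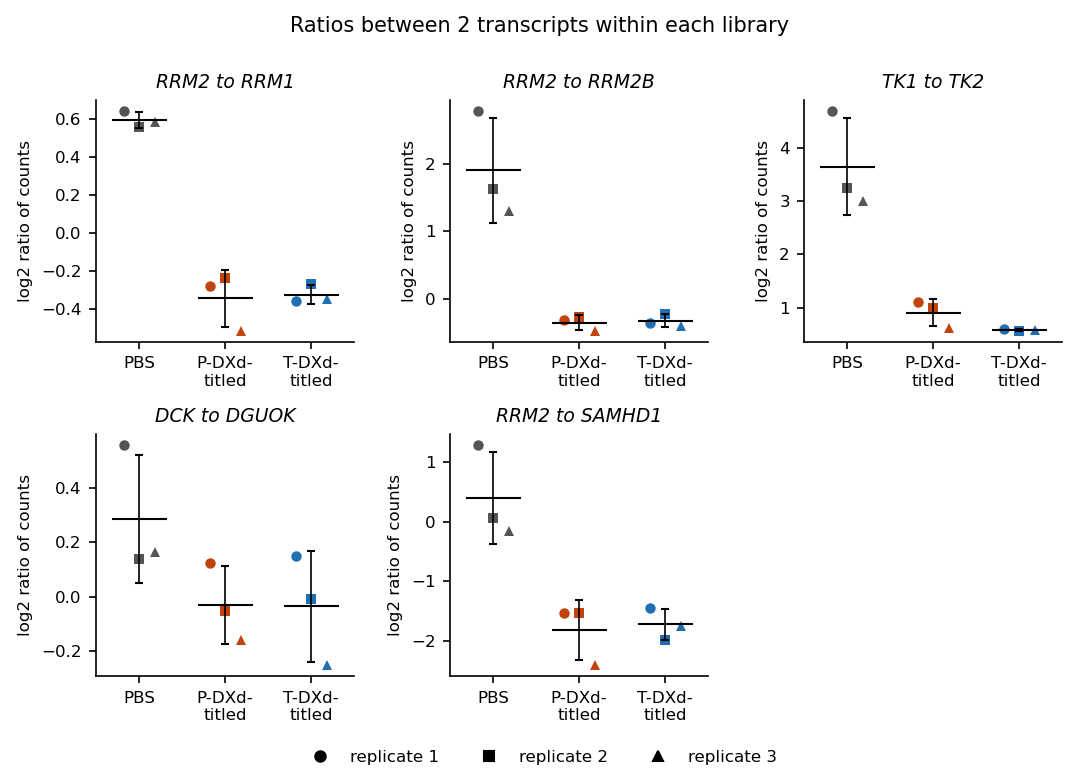
Log2 ratio of the counts of 2 genes within each library (vertical axes, each with its own range), by group; symbols are replicates, horizontal bars means and error bars the SD. In 4 of the 5 panels all treated libraries lie below all PBS libraries, and RRM2 to RRM1 shows the narrowest PBS spread (SD 0.04 log2 units). The ratios to RRM2B, TK2 and SAMHD1 restate the falls of RRM2 and TK1.

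The conjugates were then compared with each other. None of the 9 enzymes differed between P-DXd-titled and T-DXd-titled tumors by edgeR or by DESeq2, and 0.0273% of 14653 genes were called. Without adjustment, 2 had an edgeR p under 0.05. The log2 difference of P-DXd-titled minus T-DXd-titled was 0.27 for TK1 (95% confidence interval 0.05 to 0.50) and 0.31 for TYMS (0.01 to 0.62), each with an edgeR adjusted p of 1.0. The other intervals ran from -0.21 to 0.30 for RRM2, -0.12 to 0.23 for RRM1, -0.06 to 0.29 for DUT and -0.05 to 0.29 for DTYMK. They ran from -0.20 to 0.23 for DCK, -0.15 to 0.18 for DCTPP1 and -0.21 to 0.46 for SAMHD1. DTYMK was the only enzyme in which the conjugate groups did not overlap, at 40.2 to 43.2 CPM against 35.4 to 39.6 CPM; 4.01% of all genes were likewise higher in every P-DXd-titled library. These intervals do not show that the conjugates act alike.

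**Figure D4:**
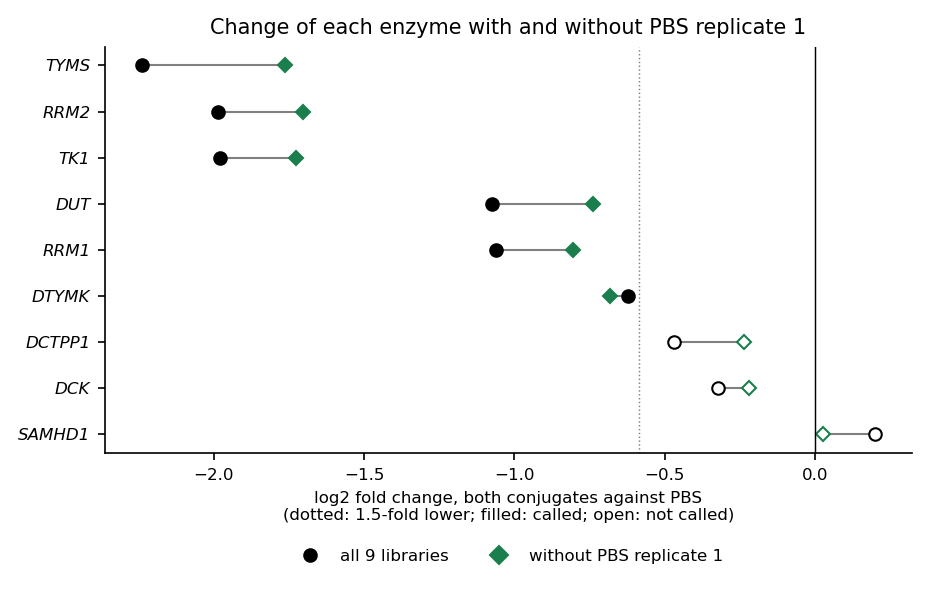
Log2 fold change of each enzyme with both conjugates against PBS (horizontal axis), fitted on all 9 libraries (black circles) and without PBS replicate 1 (green diamonds); filled symbols were called and the dotted line marks a 1.5-fold fall. Without that library TYMS moved from -2.24 to -1.76 and DUT from -1.08 to -0.74, and the same 6 enzymes were called.

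With PBS replicate 1 left out, the pooled log2 fold changes were -1.76 for TYMS, -1.73 for TK1, -1.70 for RRM2, -0.81 for RRM1, -0.74 for DUT and -0.68 for DTYMK, all called. TYMS then lay beside TK1 and RRM2. DCK, at -0.22, was again not called. For single conjugates, RRM2, TK1 and RRM1 then changed by -1.68, -1.60 and -0.78 in P-DXd-titled tumors and by -1.73, -1.88 and -0.84 in T-DXd-titled tumors, all called.

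The wider pathway was examined in lists of related genes. Of 75 genes tested in 7 further lists of nucleotide metabolism, 23 fell and 4 rose with both conjugates, with a median log2 fold change of -0.25. Over all genes tested, 17.1% were called lower and 15.2% higher, which is the background of this count and of later counts on all 9 libraries. Without PBS replicate 1, 2134 of 15205 genes tested were called lower and 2070 higher, the background of counts without that library. Fewer of the 75 genes were then called lower. Those of the folate list (2 of 12) and of the nucleotide kinases (1 of 16) were near or below that background. In the folate cycle and dUMP supply, which feed TYMS, 4 of 12 genes fell and 1 rose (median -0.38). GGH, which trims folate polyglutamates, fell by 1.71 on the log2 scale (edgeR adjusted p = 4.25e-05). Without PBS replicate 1, 2 of the 12 were called lower, GGH among them.

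Among 5 genes for mitochondrial and p53-inducible supply, TK2 rose and SLC25A36, a mitochondrial pyrimidine nucleotide carrier, fell by 0.69 (edgeR adjusted p = 0.00399). The median of the list was 0.00. SLC25A36 was not called in P-DXd-titled tumors, and its call with both conjugates was lost without PBS replicate 3. Of 16 nucleotide kinases, 4 fell (ADK, UCK2, UCKL1 and NME1) and 1 rose (median -0.12). Genes of such small counts that lie outside the naming rule, such as UCKL1 and NME1, were named after their values were seen. ADK and UCK2, the adenosine and uridine-cytidine kinases, fell by 0.71 and 0.70, and NME3, a nucleoside diphosphate kinase, rose by 0.76. Without PBS replicate 1, AK4 was the only 1 of the 16 called lower, and ADK and UCK2 were not called (log2 fold change -0.47 and -0.56).

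Among 16 genes of pool cleansing and breakdown, 4 fell and none rose (median -0.17). NT5E, the cell surface 5'-nucleotidase CD73, went from 386, 219 and 251 CPM in PBS tumors to between 65.6 and 109 CPM in treated tumors (log2 fold change -1.72; edgeR adjusted p = 3.88e-05), and its change was -1.44 without PBS replicate 1. SLC28A3, a concentrative nucleoside transporter, was the only called gene of 6 transporters (median -0.17) and rose by 1.74 (edgeR adjusted p = 0.000662), or by 1.46 without PBS replicate 1, though its level stayed under 5 CPM in every library.

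Some genes of ribonucleotide synthesis fell. Of 5 genes of de novo pyrimidine synthesis, 3 fell (median -0.64), CTPS1 by 0.90, DHODH by 0.67 and CAD by 0.64, and without PBS replicate 1 only CTPS1 was called. Of 15 genes of purine synthesis and salvage, 7 fell and none rose (median -0.58). PFAS fell by 1.68 and PAICS by 1.54 (edgeR adjusted p = 0.000334 and 9.94e-06), both enzymes of the de novo purine route, and 5 of the 15 were called lower without PBS replicate 1. PFAS and PAICS then fell by 1.11 and 1.31.

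**Figure D5:**
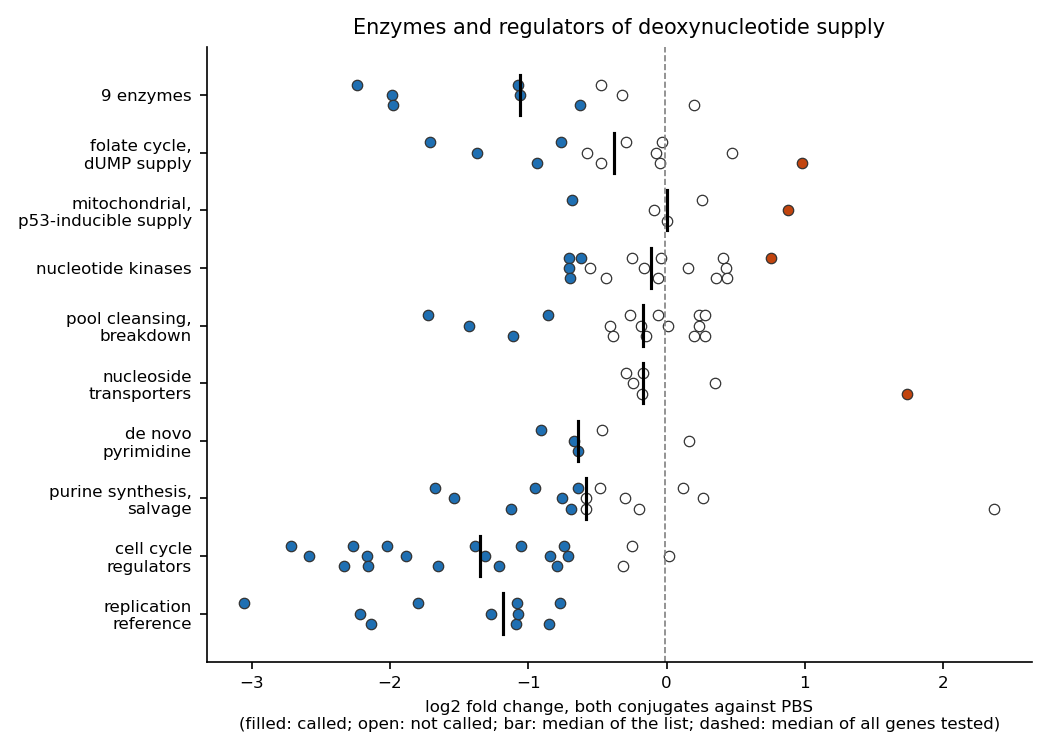
Log2 fold change of each gene with both conjugates against PBS (horizontal axis), by list; filled points were called (blue lower, orange higher), bars are list medians and the dashed line is the median of all genes tested, -0.01. The 9 enzymes have a median of -1.06, and the cell cycle regulators and replication genes have medians of -1.35 and -1.18.

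The regulators of these enzymes and other genes of DNA replication fell alongside them. Of 20 cell cycle regulators of the enzymes, 17 fell and none rose (median -1.35), and the same genes were called without PBS replicate 1. E2F1, an activator of S phase genes, fell by 1.21 (edgeR adjusted p = 3.35e-05), and E2F7, a repressor of the same genes, by 2.59 (edgeR adjusted p = 3.79e-06). CCNA2, CDK1 and CDK2, whose products include the cyclin A kinase that phosphorylates SAMHD1, fell by 2.71, 2.33 and 1.38. All 10 genes of a replication reference list fell (median -1.18), led by MKI67 at -3.05 and CDC45 at -2.22, and all but MCM3 were called without PBS replicate 1. Their summed level was 1166 to 1789.6 CPM in PBS tumors and 562 to 686 CPM in treated tumors.

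The genes whose profiles over the 9 libraries were closest to each enzyme, by root mean square distance among 9772 genes with a mean of at least 10 CPM, were named without regard to function. Nearest to TYMS were CHEK1 (0.11 log2 units), PBK (0.11) and CCNF (0.13). DSCC1, ASF1B and GINS4 were nearest to RRM2 (0.07 to 0.12), and ASF1B, KIAA1524 and DSCC1 to TK1 (0.08 to 0.10). RRM1 lay nearest to RBM26, PPM1F and PCNA (0.05 to 0.06), and DUT to BCCIP, SNRNP25 and RBM26 (0.07 to 0.09). LIN7C, ITCH and CTDSPL2 were nearest to DCK (0.04 to 0.06), TUBB4B, ANAPC7 and MDFI to DCTPP1 (0.05), and GYS1, CUL9 and GTPBP4 to DTYMK (0.08). SAMHD1 had the most distant neighbours, ADAR, GRINA and IL20RB, all at 0.13. All of these distances rest on the same 9 libraries.

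Marker genes of the tumor epithelium and of other cell types also differed between these groups. Summed levels of 6 epithelial markers were 1852 to 2579.9 CPM in PBS tumors and 3678 to 4379.5 CPM in treated tumors, with 3 of 6 called higher, led by CLDN4 (log2 fold change 1.61) and KRT8 (1.31). For 10 fibroblast markers the sums were 1058 to 2062.5 CPM and 1226 to 2226 CPM, with 5 of 9 tested called higher, led by POSTN (1.58) and COL3A1 (1.37). Of 10 tested without PBS replicate 1, 6 were called higher, with POSTN at 2.23 and COL3A1 at 1.95. In P-DXd-titled tumors against all PBS libraries, 1 of 9 tested was called higher, FAP, and POSTN and COL3A1 were not called. For 9 of 12 macrophage markers listed in both tables the sums were 8.78 to 10.1 CPM and 21.9 to 42.4 CPM. Of 8 tested, 5 were called higher, led by LYZ (3.29) and AIF1 (2.13), and MSR1 was called lower (-1.30). LYZ was at 3.92 without PBS replicate 1. Skeletal muscle markers summed to 10.3 to 54.7 CPM in PBS tumors and 101 to 267 CPM in 5 treated tumors, but to 3642 CPM in P-DXd-titled replicate 2, and 8 of 8 were called higher, led by MYLPF (6.27) and CKM (6.17). Without that library 8 of 8 were called higher, with MYLPF at 4.63 and CKM at 3.71, and the same 6 enzymes were called with both conjugates. The CKM call was lost without PBS replicate 3 (edgeR adjusted p = 0.0515). Endothelial markers summed to 5.07 to 10.9 CPM in PBS tumors and 6.54 to 11.5 CPM in treated tumors, with 1 of 6 called higher, TEK (1.16). The lymphocyte list summed to at most 2.1 CPM in any library, with 1 of 2 tested called higher, PTPRC (1.19). PTPRC is a gene of all leukocytes and not of lymphocytes alone. The median log2 fold change of the 2 was 0.05. CD3D was found at 0.49, 0.30 and 0.12 CPM in PBS tumors and at 0.04 to 0.28 CPM in treated tumors. Prostate lineage markers summed to 13.6 to 16.2 CPM and 16.7 to 24.9 CPM, with 1 of 3 called higher. Host cells in these tumors are mouse cells, while the counts are of human genes. Whether mouse reads were removed is not given in the sources used here. Whether these marker values come from mouse reads or from PC3 transcripts was not tested. The part of the other cell types in the levels of the 9 enzymes was not tested either.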

How the data were processed

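RNA was extracted from PC3 xenograft tumors (3 PBS, 3 P-DXd-titled and 3 T-DXd-titled libraries) and sequenced as TruSeq mRNA libraries. Per the study's methods and the submitters' processing notes, the authors used cutadapt for trimming, STAR for alignment to a genome named as GRCh38.p13 and featureCounts for counting. The deposited tables hold raw counts per gene for 16098 and 16114 protein-coding genes, 16008 of them in both, with identical PBS counts. Coordinates matched GENCODE v44 for only 44 of the 15869 identifiers it shares with the tables, so coordinates are given as the tables list them. The number of unused columns was 0.

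Groups were compared with edgeR 4.0.16 under R 4.3.3 (TMM scaling, filterByExpr, quasi-likelihood F test, Benjamini-Hochberg adjustment over all genes tested), following the thresholds of the study's methods, which used DESeq2. Calls needed both an adjusted p of no more than 0.05 and a change of 1.5-fold or more. Each conjugate comparison was fitted on its own 6 libraries and both conjugates against PBS on all 9. The fit was tested on simulated data. CPM came from a TMM scaling of all 9 libraries. Ratios were log2 of counts plus 0.5, compared by an exact two-sided permutation test over 84 divisions and adjusted over 6 ratios. A ratio and some genes of the lists are not reported here, though they remain in the adjustment and the counts. Alternatives were DESeq2 1.42.0, RLE size factors, library totals, other filters and fold change minimums, glmTreat, 1 fit of all 9 libraries, a block on the first digit of the code in the sample titles, and leaving out each library. Lists without PBS replicate 1, and muscle markers without P-DXd-titled replicate 2, were tallied after seeing the data.

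Named genes were the 9 enzymes, 8 fixed partners and regulators, up to 2 called higher and 2 called lower with the largest change in each list, genes overlapping an enzyme, and the 3 nearest profiles to each enzyme with a mean of at least 10 CPM. The enzymes and lists were chosen with earlier results of these data known. No label says that replicates are separate animals, so p-values measure the spread between these libraries, which may be partly technical.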

Additional observations from a re-analysis of the deposited data

How the results depend on the processing

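The number of enzymes called in P-DXd-titled tumors was 5, and 3 when glmTreat tested against a fold change of 1.5, which dropped RRM1 and DUT. That test also dropped DUT and DTYMK in T-DXd-titled tumors (4 called) and DTYMK with both conjugates (5 called). Under every other alternative, in all 4 comparisons, the number stayed within 1.5 times its value, at 4 to 6 in P-DXd-titled tumors when single libraries were left out. Leaving out single libraries gave DCK to DGUOK log2 differences of -0.40 to -0.19 (adjusted p 0.0179 to 0.179). The other 4 ratios described kept their direction and call under all alternatives run, with adjusted p up to 0.0429. Signs turned for values near 0. For SAMHD1 in T-DXd-titled tumors, values without single libraries ran from -0.044 to 0.30. Between the conjugates they ran from -0.008 to 0.12 for RRM1, -0.048 to 0.19 for RRM2, -0.067 to 0.083 for DCK, -0.02 to 0.065 for DCTPP1 and -0.02 to 0.30 for SAMHD1. For DGUOK with both conjugates they ran from -0.037 to 0.056, with -0.004 for at least 10 counts in every library and -0.007 for library totals alone. The replicate block on the first digit of the title code turned RRM2 to -0.05 and DCK to -0.033 between the conjugates and DGUOK to -0.016, and changed no call of an enzyme. Between groups, libraries that share a digit had deviations from their group means correlated at r -0.11 to 0.11. Pairs with different digits were not compared, so these values cannot show what the digit stands for.

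Among all genes, calls in P-DXd-titled tumors were 3742, and 1130 with glmTreat, 2464 without P-DXd-titled replicate 2 and 1857 without P-DXd-titled replicate 3. In T-DXd-titled tumors they were 4263, and 1696 with glmTreat and 2820 without T-DXd-titled replicate 3. With both conjugates they were 4855, and 2536 with glmTreat and 8398 with no fold change minimum. Between the conjugates they were 4, with 24 by DESeq2 and 0 to 8 under the other alternatives. With 3 libraries a group, single libraries decided some calls. Of the 9 enzymes, this held for DTYMK, which lies near the fold change minimum. It also held for DUT in P-DXd-titled tumors, where the adjusted p passed 0.05.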
